A study of Mus musculus with 6 samples.

Results

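The endothelial surface both prevents and permits clotting, and 9 genes that carry out these tasks were examined in lung endothelial cells (ECs): the anticoagulant genes Thbd, Procr and Tfpi, the procoagulant genes F3, Vwf and F8, and the fibrinolysis genes Plat, Plau and Plaur. They were named by function and matched by symbol to Ensembl identifiers, and all 9 were found among the 47729 genes counted. The libraries came from male mice on normal chow, 14 weeks old, of 2 genotypes: WT and KO, the latter carrying a CRISPR deletion of the region homologous to human LEENE/LINC00520. All mice of both genotypes received AngII from an osmotic pump at 1000 ng/kg/min for 2 weeks, so no library represents an unchallenged lung. The deletion is present in every cell of the KO animal and not in ECs alone.

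RNA was sequenced from 3 WT and 3 KO libraries of lung cells enriched for CD31 by the sample labels, or sorted on CD144 by the methods text. Cells of 3 mice per group were pooled by the labels, so a library may not be 1 animal, and p-values measure the spread between libraries, which may be partly technical. The lncRNAs of the deleted region have 0 rows in the annotation used for counting, and the genotypes therefore rest on the labels. Totals lay between 24464324 and 35184063 counts per library, and mitochondrial genes took 37.4% to 54.5% of them. All 15 EC markers were detected, with summed levels of 2194 to 3964 CPM (counts scaled to a common library size) in WT and 2480 to 4027 CPM in KO. The preparations also held much RNA of other lung cells. The summed levels of 5 alveolar type II markers were 4934, 46390 and 14404 CPM in WT and 36566 to 44951 CPM in KO, and those of 4 airway markers were 15362 to 40423 CPM in WT and 33576 to 56788 CPM in KO. In such bulk samples, fewer cells of a type and less RNA per cell cannot be told apart.

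Clotting starts when tissue factor, encoded by F3, meets factor VII of the blood, and it ends in thrombin and a fibrin mesh. ECs restrain it with tissue factor pathway inhibitor (Tfpi) and with thrombomodulin (Thbd), which binds thrombin and turns it toward activation of protein C, held at the surface by the endothelial protein C receptor (Procr). ECs also store von Willebrand factor (Vwf), which tethers platelets and carries factor VIII (F8), and they release tissue plasminogen activator (Plat), which makes plasmin to dissolve fibrin. Urokinase (Plau) makes plasmin at cell surfaces where its receptor (Plaur) holds it.

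None of the 9 genes was called different between KO and WT. Calls were made with edgeR's quasi-likelihood test on all 6 libraries, at a Benjamini-Hochberg adjusted p under 0.05 over 14625 genes, which 0.109% of all genes passed. At an unadjusted p under 0.05 the count was also 0 of 9, against 10.3% of all genes. DESeq2 called 0 of the 9 as well, against 1.21% of the genes to which it gave an adjusted p. Log2 fold changes of KO minus WT lay between -0.43 for Plaur and 0.67 for Plau, with a median of -0.14 over the 9 genes and 0.03 over all genes tested. Of the 9, 3 were above and 6 below 0, against 45.9% of all genes below 0. The WT and KO libraries overlapped for every one of the 9 genes. With 3 libraries against 3 the intervals were wide. For Thbd the 95% interval of the log2 fold change ran from -1.18 to 0.91, and the p-value does not show that the genotypes were alike.

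**Figure D1:**
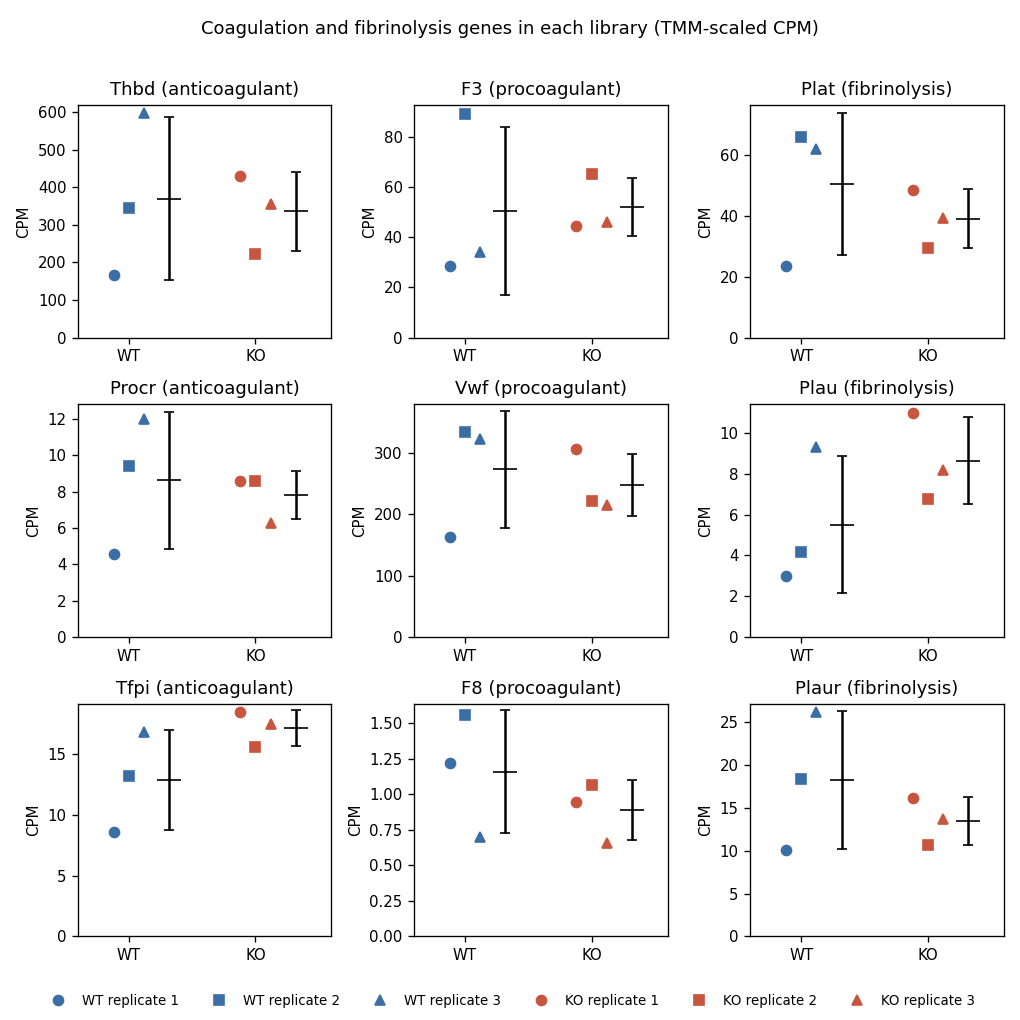
Level of each of the 9 genes in each library in CPM (counts scaled to TMM library size, linear axes from 0); symbols are libraries, and the horizontal mark with bars is the mean ± SD of the 3 libraries of a genotype. The genotypes overlap in all 9 panels, and WT replicate 1 is the lowest library in 8 of them.

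The 9 genes were present at very different levels. In RPKM, which is CPM divided by exon length in kilobases (mean over the 6 libraries) and allows genes of different length to be compared, Thbd was at 94.8 and ranked 221 among the 14625 genes tested. F3 was at 20.3, Plat at 17.7 and Vwf at 16.2 RPKM. Plaur followed at 6.07, Procr at 4.05, Plau at 3.02 and Tfpi at 2.75 RPKM. F8 was the lowest, at 0.103 RPKM and rank 14267. The order among F3, Plat and Vwf, and that of neighbors among Plaur, Procr, Plau and Tfpi, rests on differences smaller than the spread between libraries. Within the WT group this spread was up to 3.12-fold for F3 and 2.63-fold for Procr.

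Of the anticoagulant genes, Thbd (chromosome 2, 148404466 to 148408188, minus strand, GRCm38), whose exons cover its whole span of 3723 bases, measured 166, 346 and 597 CPM in WT replicates 1, 2 and 3, the order used throughout. In the KO libraries it was at 429, 223 and 356 CPM. WT held both the lowest and the highest library, a 3.60-fold range, and all KO libraries lay between them. The log2 fold change was -0.14 (standard error, SE, 0.45, adjusted p = 0.928, edgeR's quasi-likelihood test). Its sign turned when WT replicate 3 was left out, at 0.38, and when KO replicate 2 was left out, at 0.06.

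Procr (chromosome 2, 155751117 to 155755471, plus strand) was at 4.55, 9.40 and 11.99 CPM in WT as compared to 8.60, 8.57 and 6.28 CPM in KO. As for Thbd, WT replicate 1 was the lowest and WT replicate 3 the highest of the 6 libraries. The log2 fold change was -0.14 (SE 0.34, adjusted p = 0.895, same test), and without WT replicate 3 it was 0.16. Tfpi (chromosome 2, 84432855 to 84476775, minus strand) was at 8.62, 13.2 and 16.9 CPM in WT against 18.4, 15.6 and 17.5 CPM in KO. Here 2 of the 3 KO libraries were above all WT libraries, and the third lay between WT replicates 2 and 3. The log2 fold change of 0.42 (SE 0.24, 95% interval from -0.13 to 0.97, adjusted p = 0.569) had the lowest unadjusted p of the 9 genes, at 0.118 in edgeR's test. It stayed above 0 in each of 19 alternative settings, between 0.19 and 0.64.

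F3, the initiator of clotting (chromosome 3, 121723537 to 121735048, plus strand), was at 28.5, 89.1 and 34.0 CPM in WT as compared to 44.6, 65.3 and 46.0 CPM in KO. The KO libraries lay between WT replicate 2 and the other WT libraries. For F3 the log2 fold change was 0.04 (SE 0.42, adjusted p = 0.979 by edgeR). It was 0.70 without WT replicate 2 (adjusted p = 0.0937) and below 0 in 6 of the 19 alternatives. F3 is known from perivascular and epithelial cells more than from resting ECs, and its levels are set here beside mesenchymal and epithelial markers. The summed level of 7 mesenchymal markers was 331, 619 and 651 CPM in WT and 579, 443 and 619 CPM in KO. This mesenchymal sum was lowest in WT replicate 1, as was F3, but highest in WT replicate 3, where F3 was next to lowest. The summed level of 6 alveolar type I markers was 883, 1824 and 1005 CPM in WT and 1375, 1962 and 1354 CPM in KO. WT replicate 1 was the lowest library and WT replicate 3 the next lowest both for F3 and for this sum, and WT replicate 2 and KO replicate 2 were the highest pair for both. The same held for the airway sum, at 15362, 40423 and 19928 CPM in WT and 33576, 56788 and 35645 CPM in KO. It also held for the alveolar type II sum, at 4934, 46390 and 14404 CPM in WT and 36707, 44951 and 36566 CPM in KO. The alveolar type I sum does not stand for each of its genes. Ager, the largest part of it in 5 of the 6 libraries, was at 214, 996 and 414 CPM in WT and 772, 1093 and 790 CPM in KO. Hopx was at 289, 185 and 225 CPM in WT and 140, 218 and 147 CPM in KO, and Rtkn2, like Hopx, was highest in WT replicate 1, where F3 was lowest. All 6 alveolar type I genes were tested, 0 were called and their median log2 fold change was -0.14. The part of epithelial or mesenchymal RNA in the level of F3 was not tested.

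**Figure D2:**
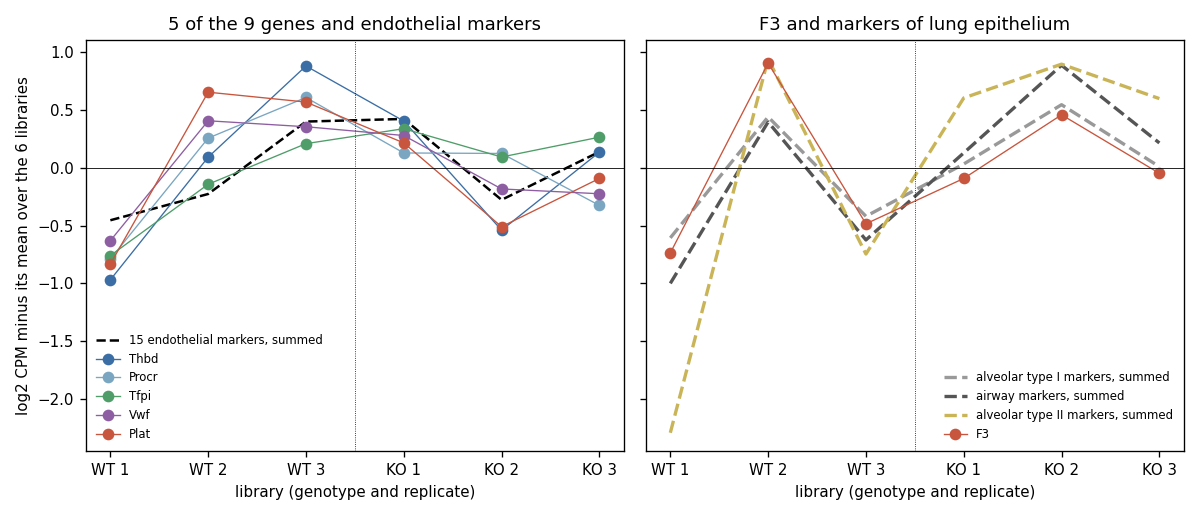
Log2 CPM of each gene or of each summed marker list, minus its mean over the 6 libraries (vertical axis), by library (horizontal axis); lines only join the values of 1 gene or list, since replicates have no order. Thbd, Procr, Tfpi, Vwf, Plat and F3 are all lowest in WT replicate 1, as are the endothelial and the alveolar type II markers, and F3 is highest in WT replicate 2, where the alveolar type II markers are at 46390 CPM.

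Vwf (chromosome 6, 125546774 to 125686679, plus strand) was at 163, 334 and 322 CPM in WT against 306, 222 and 216 CPM in KO. WT replicate 1 was below and the other WT libraries were above all KO libraries. KO minus WT was -0.14 on the log2 scale (SE 0.30, adjusted p = 0.877) and ran from -0.41 to 0.00 over the alternatives. Megakaryocytes and platelets make Vwf too. Their 8 markers had a summed level of 30.3 to 45.1 CPM in WT and 40.9 to 83.0 CPM in KO. Log2 fold changes were above 0 for 8 of 8, with a median of 0.78, whereas 45.9% of all genes were below 0. None of the 8 was called, against 0.109% of all genes. At an unadjusted p under 0.05 there were 4, all higher in KO, against 5.62% of all genes in that direction. The part of platelet and megakaryocyte RNA in the level of Vwf was not tested. F8 (chromosome X, 75172715 to 75382615, minus strand), whose main known source is the sinusoidal endothelium of the liver, had 50, 53 and 15 counts in WT and 22, 29 and 19 counts in KO. This corresponds to 1.22, 1.56 and 0.702 CPM in WT and 0.946, 1.07 and 0.655 CPM in KO. The lowest and the highest libraries of the genotypes interleaved, and the log2 fold change was -0.40 (SE 0.42, adjusted p = 0.739). The 95% interval ran from -1.39 to 0.59, and the p-value does not show that the genotypes were alike.

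Plat (chromosome 8, 22757744 to 22782847, plus strand) was at 23.5, 65.8 and 62.0 CPM in WT as compared to 48.6, 29.4 and 39.3 CPM in KO. The pattern was that of Vwf, with WT replicate 1 below and the other WT libraries above all KO libraries. For Plat the log2 fold change was -0.37 (SE 0.37 and adjusted p = 0.728 by edgeR), and without WT replicate 1 it was -0.72 (adjusted p = 0.387).

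Plau (chromosome 14, 20836662 to 20843388, plus strand) was at 3.01, 4.17 and 9.32 CPM in WT against 10.96, 6.77 and 8.18 CPM in KO. All KO libraries were above WT replicates 1 and 2, and WT replicate 3 lay among them. Its fold change, 0.67 on the log2 scale, was the highest of the 9 genes (SE 0.41, adjusted p = 0.586), and it was 1.25 without WT replicate 3 (adjusted p = 0.341). Its receptor Plaur (chromosome 7, 24462484 to 24475968, plus strand) was at 10.1, 18.4 and 26.3 CPM in WT as compared to 16.2, 10.6 and 13.7 CPM in KO. WT replicates 2 and 3 were above all KO libraries and WT replicate 1 was below them. The log2 fold change was -0.43 (SE 0.33, adjusted p = 0.647), and without WT replicate 1 it was -0.73 (adjusted p = 0.423). Macrophages and neutrophils are known to make both genes. The summed level of 10 macrophage markers was 78.9, 161 and 169 CPM in WT and 229, 125 and 146 CPM in KO, and that of 6 neutrophil markers was 30.5 to 82.0 CPM in WT and 52.3 to 59.8 CPM in KO. The part of leukocyte RNA in the levels of Plau and Plaur was not tested.

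**Figure D3:**
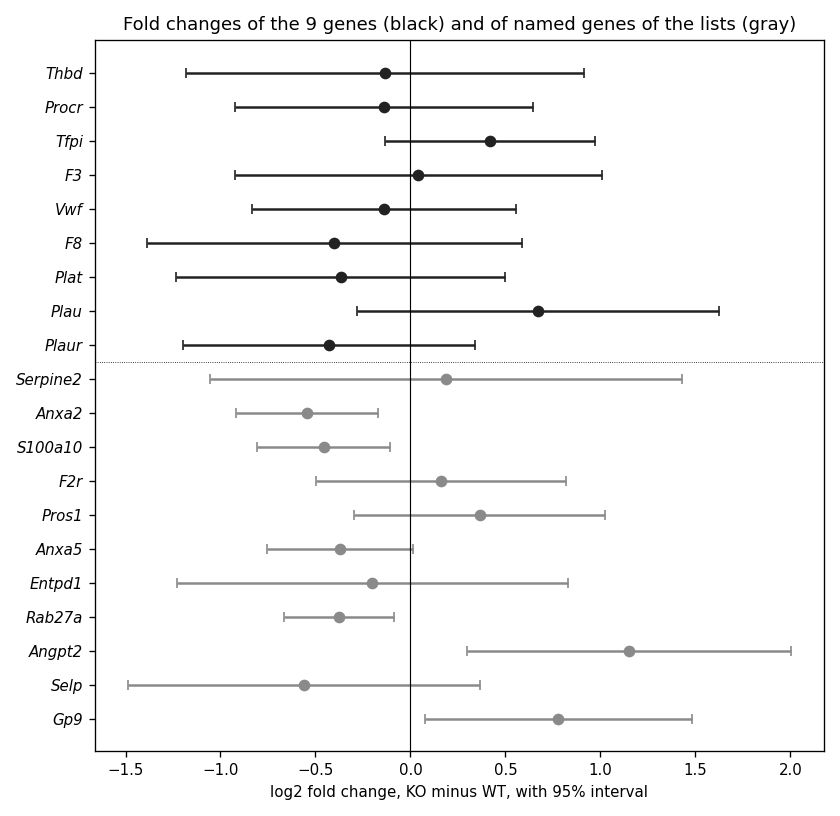
Log2 fold change of KO minus WT with its 95% interval (horizontal axis) from edgeR's quasi-likelihood fit, for the 9 genes (black) and for 11 genes of the coagulation and fibrinolysis lists (gray). All 9 black intervals include 0, and the gray intervals that do not are those of Anxa2, S100a10, Rab27a, Angpt2 and Gp9, of which 0 passed the adjusted threshold.

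The spread among WT libraries was larger than that among KO libraries for 9 of the 9 genes on the log2 scale, and for 66.1% of all genes tested. This varied with scaling, at 8 of 9 against 81% with total counts alone and 7 of 9 against 78.7% relative to the EC markers. WT replicate 1 was the lowest of the 6 libraries for 8 of the 9 genes, all but F8, against 26.9% of all genes. The count of 8 depended on how libraries were scaled as well. It was 8 with RLE scaling (25.1% of all genes), 8 with upper-quartile scaling (23.3%), 2 with total counts alone (9.38%), 3 with total counts without mitochondrial genes (15.6%) and 4 relative to the EC markers (5.64%). The same library had the lowest summed EC markers, at 2194 CPM, and the lowest summed alveolar type II markers, at 4934 CPM.

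Levels were therefore also set against the mean log2 count of the 15 EC markers of the same library, a scale that no library size enters. On this scale Thbd was 0.75, 1.54 and 1.64 above the marker mean in WT and 1.19, 0.90 and 1.18 above it in KO. Vwf was 0.72, 1.49 and 0.75 above it in WT and 0.70, 0.89 and 0.45 in KO. The genotypes overlapped for both genes on this scale too. Plat was at -2.07, -0.86 and -1.63 in WT and between -2.02 and -1.96 in KO, where the 3 libraries were nearly equal. Relative to the EC markers, the genotypes separated for 2 of the 9 genes. Plau was at -5.03, -4.83 and -4.36 in WT and at -4.10, -4.14 and -4.27 in KO, so that all KO libraries lay above all WT libraries, a separation found for 2.02% of all genes in that direction. Plaur was at -3.29, -2.69 and -2.86 in WT and at -3.54, -3.49 and -3.52 in KO, with every KO library below every WT library, as for 3.66% of all genes. With this scaling in edgeR's fit, the log2 fold changes were 0.54 for Plau (unadjusted p = 0.222) and -0.59 for Plaur (unadjusted p = 0.168), and 0 of the 9 genes had an unadjusted p under 0.05. F3 had a log2 fold change of -0.18 in that fit.

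Ratios of 2 genes within a library were compared next, since these too are independent of library scaling. They were formed from counts per kilobase and compared with a two-sided exact permutation test, which cannot give a p below 0.1 with 3 libraries against 3. For Plau to Plaur, the log2 ratio was -1.58, -1.98 and -1.33 in WT and -0.40, -0.49 and -0.59 in KO. Transcripts of the enzyme thus stood at 0.253 to 0.397 of those of its receptor in WT and at 0.666 to 0.756 of them in KO, with no overlap. The mean log2 ratio was -1.63 ± 0.33 (SD, n = 3) in WT and -0.49 ± 0.09 (SD, n = 3) in KO, a difference of 1.14 (exact permutation p = 0.1, adjusted over 5 ratios 0.5, of which 4 are given here). With each library left out in turn the difference was 0.96 to 1.29.

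For Thbd to F3, the log2 ratio was 1.98, 1.40 and 3.57 in WT and 2.71, 1.21 and 2.39 in KO. The difference of -0.21 (exact permutation p = 0.9, adjusted 0.9) was small beside the spread, and Thbd transcripts exceeded those of F3 per kilobase 2.32-fold at the lowest, in KO replicate 2, and 11.9-fold at the highest, in WT replicate 3. Vwf exceeded F8 by 81.2-fold to 274-fold per kilobase in WT and by 126-fold to 198-fold in KO, with a difference in log2 ratio of 0.25 (exact permutation p = 0.7, adjusted 0.9). Procr, which presents protein C to the complex of thrombin and thrombomodulin, was at 0.0369 to 0.0505 of Thbd in WT and at 0.0324 to 0.0705 of it in KO, with a difference in log2 ratio of -0.05 (exact permutation p = 0.9, adjusted 0.9).

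**Figure D4:**
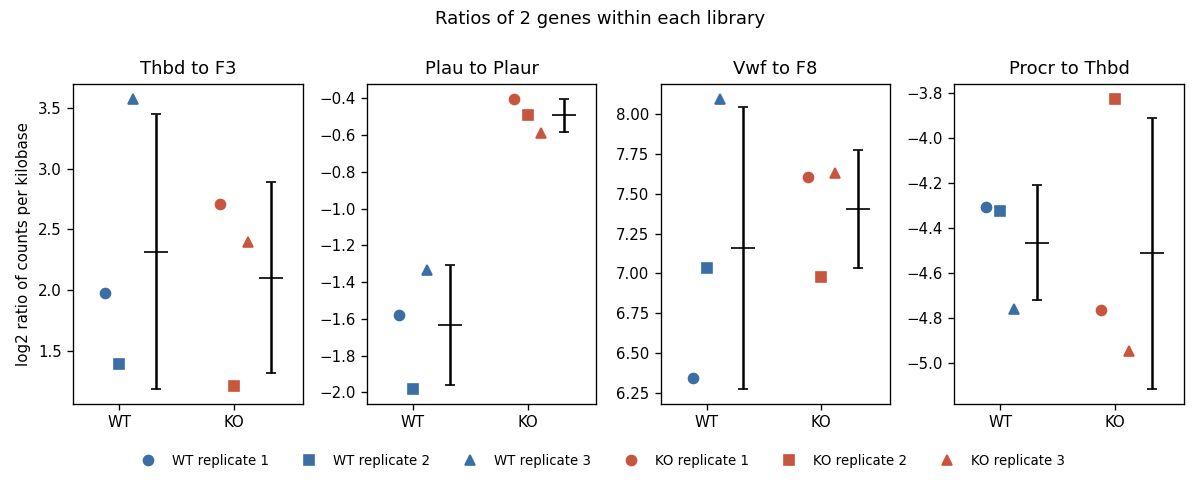
Log2 ratio of counts per kilobase of 2 genes within each library (vertical axes, which differ between panels and do not start at 0), for WT and KO; symbols are libraries, and the horizontal mark with bars is the mean ± SD. The genotypes are apart for Plau to Plaur alone among the 4 pairs shown, with WT between -1.98 and -1.33 and KO between -0.59 and -0.40.

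The wider clotting and fibrinolysis system was followed through 59 further genes in 7 lists. Klkb1 had no row under that symbol, and 43 of the 59 passed the filter on low counts. None of the 43 was called at an adjusted p under 0.05. Their median log2 fold change was 0.18, with 29 above and 14 below 0, against a median of 0.03 and 45.9% below 0 over all genes. At an unadjusted p under 0.05, 2 had higher and 4 had lower levels in KO, against 5.62% and 4.68% of all genes. In 2 of the 43 all KO libraries lay above all WT libraries, and in 4 all lay below, against 8.59% and 9.2% of all genes.

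Among 7 inhibitors of the plasmin system, 4 were tested. Serpine2, which encodes an inhibitor of thrombin and urokinase, was at 23.5, 132 and 45.0 CPM in WT, while the KO libraries lay between 73.8 and 79.8 CPM (log2 fold change 0.19). Serpinb6a had the highest level per length of the list and a log2 fold change of 0.03.

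Of 7 genes of plasminogen and its receptors, 5 were tested. In 2 of them every KO library lay below every WT library, against 9.2% of all genes. Annexin A2 and S100A10 form a surface complex that binds plasminogen and its activators. Anxa2 was at 377, 369 and 345 CPM in WT as compared to 229, 267 and 251 CPM in KO (log2 fold change -0.55, SE 0.16, adjusted p = 0.357, edgeR's quasi-likelihood test). S100a10 was at 90.6, 110 and 88.1 CPM in WT against 62.7, 77.9 and 69.8 CPM in KO (log2 fold change -0.46, SE 0.15, adjusted p = 0.391). For both genes every KO library was below every WT library, and with TMM scaling the spread within a genotype was small. This spread depended on scaling. With total counts alone the SE was 0.37 for Anxa2 and 0.33 for S100a10, and relative to the EC markers it was 0.46 and 0.43. DESeq2 called Anxa2 (log2 fold change -0.58, adjusted p = 0.027) and not S100a10 (adjusted p = 0.23). Plg, which encodes plasminogen, had at most 3 counts in a library and was not tested.

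Of 11 genes of the storage, clearance and binding of Vwf, 10 were tested. Angpt2, whose protein is stored with von Willebrand factor in the Weibel-Palade bodies of ECs, was at 2.79, 4.67 and 7.30 CPM in WT as compared to 14.4, 7.87 and 10.2 CPM in KO. All KO libraries thus lay above the WT range, at a log2 fold change of 1.15 (SE 0.37 and adjusted p = 0.383). Rab27a, a small GTPase of these storage granules, was at 48.8, 56.1 and 47.1 CPM in WT against 37.3, 41.3 and 38.6 CPM in KO, all of them below the WT range (log2 fold change -0.37, SE 0.12, adjusted p = 0.392). Gp9, part of the platelet receptor for von Willebrand factor and also one of the 8 platelet markers, was at 2.497, 2.61 and 1.55 CPM in WT as compared to 4.81, 3.86 and 2.86 CPM in KO (log2 fold change 0.78, SE 0.30, adjusted p = 0.465). Selp, which encodes P-selectin of the same granules, was at 6.73, 17.3 and 11.2 CPM in WT against 11.8, 6.81 and 5.31 CPM in KO (log2 fold change -0.56, SE 0.40). Adamts13, whose protein cleaves von Willebrand factor, had at most 12 counts in a library and was not tested.

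Among 11 further anticoagulant genes, 9 were tested and none had an unadjusted p under 0.05. Anxa5, whose protein shields phosphatidylserine, was at 257, 226 and 225 CPM in WT as compared to 159, 204 and 183 CPM in KO, so that the genotypes did not overlap (log2 fold change -0.37, SE 0.17, adjusted p = 0.494). Pros1, the cofactor of activated protein C, had a log2 fold change of 0.36, and Entpd1, an ectonucleotidase that removes ADP, had -0.20. Of 4 receptors for thrombin and related proteases, 3 were tested, with log2 fold changes of 0.16 to 0.91. F2r, the thrombin receptor of ECs, was at 22.2, 53.5 and 39.6 CPM in WT against 41.9, 41.7 and 45.1 CPM in KO. F2rl3 had at most 7 counts in a library.

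Of 14 listed clotting factor genes, 7 were tested. F7, which encodes the partner of tissue factor, had 110 to 245 counts in WT and 115 to 179 counts in KO, and was at 2.96 RPKM. The untested F9, F11 and F12 had at most 9, 3 and 3 counts in a library. Fgg, the fibrinogen gamma chain, was the highest of this list per length, at 1.84, 31.2 and 4.64 CPM in WT and at 6.66, 8.68 and 6.55 CPM in KO. Its high library was WT replicate 2, and so was that of Ggcx, the carboxylase of vitamin K dependent factors, at 24.2, 166 and 49.3 CPM in WT and at 102, 123 and 111 CPM in KO. In that library the alveolar type II markers were also the highest among the WT libraries, at 46390 CPM. These markers were at 36566 to 44951 CPM in KO, where Fgg was at 6.55 to 8.68 CPM. The part of alveolar type II RNA in the levels of Fgg and Ggcx was not tested. None of the 5 tested genes of factor secretion and maturation was called, with log2 fold changes of 0.09 to 0.50.

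**Figure D5:**
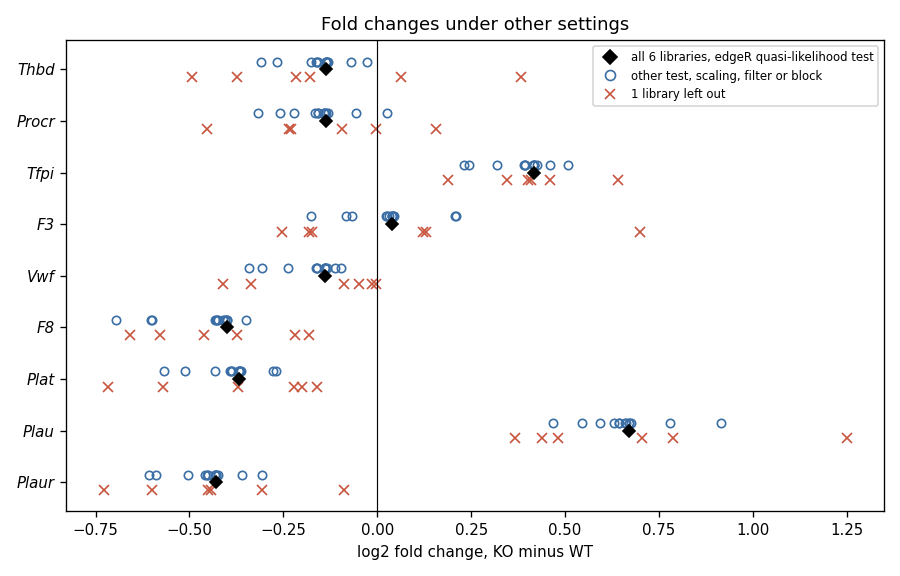
Log2 fold change of KO minus WT (horizontal axis) of the 9 genes with all libraries (black diamonds), with 13 other tests, scalings, filters or a block (open circles), and with 1 library left out (crosses). Tfpi and Plau stay above 0 and Vwf, F8, Plat and Plaur below 0 in all settings plotted, while Thbd, Procr and F3 cross 0.

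Over 19 alternatives, 6 of the 9 genes kept their sign, and the number called at an adjusted p under 0.05 was 0 in each. The lowest adjusted p of any of the 9 genes in any alternative was that of F3 without WT replicate 2, at 0.0937.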

How the data were processed

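The RNA of lung ECs was sequenced as stranded, poly(A)-enriched libraries, 3 WT and 3 KO. The authors deposited raw counts per gene. Per the file headers and the submitters' processing notes, reads were aligned to mm10 with STAR 2.5.4b, and uniquely aligned reads were counted over exons on the reverse strand with featureCounts 2.0.0 and the Ensembl release 84 annotation of GRCm38. Reads shared by overlapping genes on a strand were dropped; no exon base of the 9 genes is shared in this way. Symbols came from a supplied table of gene identifiers and names (47224 of 47729 genes). No table held unassigned reads.

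Groups and replicate numbers were read from the sample titles. Genes were filtered with filterByExpr, libraries were scaled by TMM, and genotype was tested with glmQLFit and glmQLFTest of edgeR 4.0.16 (R 4.3.3) on all 6 libraries, with Benjamini-Hochberg adjustment over 14625 genes. Standard errors were derived from the fold change and the F statistic. CPM used TMM-scaled library sizes, and ratios added 0.5 counts to each gene. The fit was tested on simulated data. The smallest exact permutation p is 0.1.

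The members and lists were chosen with earlier results of these data known. Named genes were the 9 members, 10 genes fixed by name (1 of them, and a ratio with it, is not reported here), and from each list every tested gene with an unadjusted p under 0.05 plus the one with the highest RPKM. Anxa5 and Fgg entered as the latter, and F7, F9, F11, F12, Plg, Ager, Hopx and Rtkn2 were named after their values were seen. Alternatives were DESeq2 1.42.0, limma-voom (limma 3.58.1), other scalings, filters and options, a replicate block, and leaving out each library. Each pair of libraries differed by more than sampling noise, with the lowest chi-square divided by its degrees of freedom at 40.3.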

Additional observations from a re-analysis of the deposited data

How the results depend on the processing

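The count of genes with an adjusted p under 0.05 was 16 with all libraries. It was 187 with DESeq2, 26 with limma-voom, 211 with the likelihood ratio test, 26 with RLE scaling, 31 with upper-quartile scaling, 123 with total counts alone, 114 with total counts without mitochondrial genes, 40 relative to the EC markers and 152 without a filter on low counts, and it ran from 0 to 791 with a library left out. WT replicate 2 gave the 791, and each KO library gave 0, with 986 to 1112 genes at an unadjusted p under 0.05. The cause was not tested. The number of the 9 genes called was 0 throughout. At an unadjusted p under 0.05 it was 1 with limma-voom (Plau), 1 without mitochondrial genes in the totals (Plaur), 1 without a filter (Plau) and 0 to 2 with a library left out (2 without WT replicate 1 or 3, 1 without WT replicate 2).

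Signs turned for Procr with limma-voom (0.027) and without WT replicate 3 (0.16), for Thbd without WT replicate 3 (0.38) and without KO replicate 2 (0.06), and for F3 with total counts alone (-0.066), total counts without mitochondrial genes (-0.084), relative to the EC markers (-0.18), and without WT replicate 1 (-0.25), WT replicate 3 (-0.18) or KO replicate 2 (-0.17). With a library left out, Thbd ran from -0.49 to 0.38, Procr from -0.45 to 0.16 and F3 from -0.25 to 0.70. Scaling moved the median log2 fold change of all genes from 0.03 to -0.13 with total counts alone, -0.18 without mitochondrial genes and -0.21 relative to the EC markers, and F3 lay above each of these medians under the same scaling.

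Among the ratios, Plau to Plaur kept its sign in each of 7 alternatives, at 0.96 to 1.29. With a library left out, Thbd to F3 ran from -0.67 to 0.42, Vwf to F8 from -0.16 to 0.72 and Procr to Thbd from -0.39 to 0.17. For the last, the sign turned without WT replicate 1 (0.03), WT replicate 2 (0.02), KO replicate 1 (0.08) or KO replicate 3 (0.17). It turned for Vwf to F8 without WT replicate 1 (-0.16), and for Thbd to F3 without WT replicate 3 (0.42) or KO replicate 2 (0.23).

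With the replicate number as a replicate block, 0 genes passed over all genes (1776 at an unadjusted p under 0.05), and 0 of the 9. Deviations of same-numbered libraries correlated at -0.08, 0.22 and 0.01, and WT replicate 1 correlated best with KO replicate 3, so the numbers were not taken as pairs. Anxa2, S100a10, Rab27a, Angpt2 and Gp9, whose alternatives were added after their values were seen, kept their sign in all 19, with 1 call (Anxa2, DESeq2). With 3 libraries in a group, no outlying library was tested for, and F8 rests on 15 to 53 counts.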

Other observations

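Klf2 and Klf4, transcription factors known to induce Thbd in ECs, were named here after their values were seen. Both had lower levels in all KO libraries than in any WT library, as did 9.2% of all genes. Klf2 was at 255 to 292 CPM in WT and 121 to 145 CPM in KO, with a 95% interval of the log2 fold change from -1.43 to -0.69 (adjusted p = 0.0852 in edgeR's test), and Klf4 was at 215 to 224 CPM in WT and 103 to 120 CPM in KO, with an interval from -1.33 to -0.67 (adjusted p = 0.0721). Neither passed the adjusted threshold in that test, whereas the paper, which used DESeq2, lists both among its genes lower in KO. By qPCR the paper also reports both lower in KO hearts, and higher with LEENE overexpression in KO lung ECs and WT aortic rings. Beside Klf2 and Klf4, Thbd was at -0.14 with a 95% interval from -1.18 to 0.91, which includes values as low as theirs. Whether Thbd differed from Klf2 and Klf4 in its change was not tested.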
